A study of Mus musculus with 1600 samples.

Results

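In a single-cell experiment on a microfluidic chip, some capture wells receive no cell, and the RNA read in such wells shows what a well holds without one. Here these wells were the ones whose label gave 0 cells on imaging: 588 of the 1600 wells of the series. They were compared, within each pool of mice, with 639 wells imaged as holding 1 cell. These reached 500 genes with a count of 1 or higher, and no more than 30% of their reads lay on mitochondrial genes. The 2 kinds are called empty wells and kept 1-cell wells below. The working name for what empty wells hold, free RNA, would describe RNA spread through the cell suspension. The contents of these wells followed the chip column in which a well lay, so they are described here by their rule, as RNA of empty wells, and whether it came from the suspension was not tested.

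All mice were Nos3-/-, without endothelial nitric oxide synthase, on a C57BL/6 background, and were 10 weeks old. Diabetic mice had received streptozotocin, which destroys pancreatic beta cells, from week 8 of age (5 daily doses of 50 µg per g), and control littermates citrate alone. Glomeruli, taken with magnetic beads from the kidneys of 3 mice, were combined per condition in each of 2 experiments, digested with collagenase, Pronase and DNase, and loaded on the Fluidigm C1 chip for 800 cells, so that there were 4 pools of 400 wells. Each pool filled 10 chip columns of 40 rows, and the control and diabetes pools of an experiment shared a chip. The 4 pools, control replicates 1 and 2 and diabetes replicates 1 and 2, held 195, 111, 184 and 98 empty wells and 120, 203, 128 and 188 kept 1-cell wells. The replicate number is that of the experiment.

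The glomerulus is the filter of the kidney: fenestrated endothelium lines its capillaries, mesangial cells hold the capillary loops together, and podocytes wrap them from outside. Tubule segments that follow the glomerulus carry dense mitochondria to drive ion transport, and pieces of tubule are a usual companion of isolated glomeruli. When a cell breaks during digestion, its transcripts pass into the solution around the remaining cells, and mitochondria, being closed by membranes of their own, can persist after the cell has opened. Mitochondrial transcripts are for this reason a common sign of damaged cells in single-cell data.

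Empty wells held many reads. The median empty well had 2212 and 33610 reads on genes in control replicates 1 and 2 and 2397 and 32994 in diabetes replicates 1 and 2, while the median kept 1-cell well had 32222, 219072, 43577 and 176715 in the same order. The ranges overlapped in every pool: the richest empty wells held 36437, 236629, 22721 and 164566 reads, and the poorest kept 1-cell wells held 1929, 15339, 2762 and 20229. Of the empty wells, 28.7%, 6.31%, 14.7% and 42.9% lay above the 5th percentile of the kept 1-cell wells of their own pool. This share was largest in diabetes replicate 2. There the upper quartile of empty wells (63683 reads) was still below the lower quartile of kept 1-cell wells (107508). The filter on genes and mitochondrial reads would have passed 90 of 195, 100 of 111, 98 of 184 and 79 of 98 empty wells. The mean empty well had 9.76%, 16.7%, 7.14% and 23.7% of the reads of the mean kept 1-cell well. Both shares from experiment 2 were above both from experiment 1. Summed, the empty wells took 9.25%, 5.47%, 6.16% and 6.70% of all reads of their pools.

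**Figure D1:**
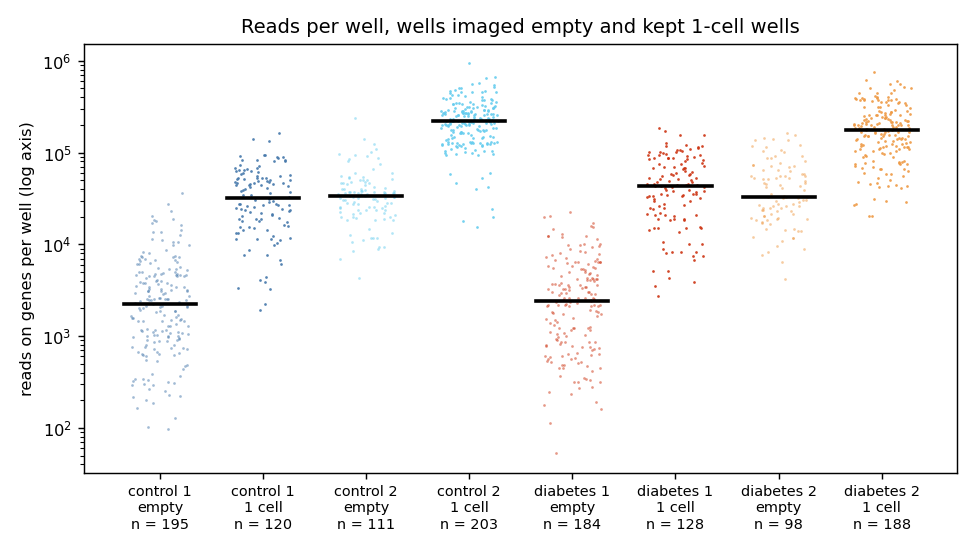
Reads on genes per well on a log axis, for the empty wells and the kept 1-cell wells of each pool; each point is a well and the black bar is the median. The medians of the empty wells are 2212 and 2397 reads in experiment 1 and 33610 and 32994 in experiment 2, and in every pool the upper empty wells overlap the lower 1-cell wells.

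The first question was which cells the RNA of empty wells came from. Marker lists of 3 glomerular lineages were used: endothelial (14 genes, such as Kdr, the VEGF receptor), mesangial (10 genes, such as Pdgfrb, the PDGF receptor) and podocyte (11 genes, such as Podxl, the sialomucin podocalyxin). After each well had been thinned to 1000 reads outside the mitochondrial genome, reads of all 3 lineages stood together in 39 of 121 empty wells of control replicate 1 (32.2%, exact Clopper-Pearson 95% interval 24% to 41.3%), 84 of 111 of control replicate 2 (75.7%, 66.6% to 83.3%), 25 of 118 of diabetes replicate 1 (21.2%, 14.2% to 29.7%) and 53 of 98 of diabetes replicate 2 (54.1%, 43.7% to 64.2%). In kept 1-cell wells the same share was 17.5% (11.2% to 25.5%), 32.5% (26.1% to 39.4%), 12.5% (7.32% to 19.5%) and 27.1% (20.9% to 34.1%). The share was higher in the empty wells of all 4 pools. The intervals cover counting error of wells only and take wells as independent. They were apart in both pools of experiment 2 and overlapped in both of experiment 1. Because the contents of empty wells followed the chip column, wells of a pool are not independent, and the intervals may be too narrow. Their separation or overlap is therefore no test between the kinds of well. Averaged exactly over all draws of 1000 reads from each well, the shares were 38.3%, 73.3%, 21.5% and 53.9% in empty wells and 20.8%, 32.6%, 9.03% and 25% in kept 1-cell wells. Thinning left out 74 and 66 shallower empty wells of control and diabetes replicate 1 and no kept 1-cell well. Before thinning the shares were 50.3%, 100.0%, 33.7% and 96.9% in empty wells and 70.8%, 99.5%, 56.2% and 98.4% in kept 1-cell wells. The number of genes at this depth was close in both kinds of well, with medians of 577, 621, 622 and 552 in empty wells and 585, 559, 606 and 564 in kept 1-cell wells.

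Lists of cell type markers showed which lineages were over- or under-represented when the reads of all wells of a kind were summed. The values that follow are ratios of summed CPM (reads scaled to a common library total, with edgeR's TMM factors), empty over kept 1-cell wells. Podocyte markers summed to 8922, 7855, 1423 and 3925 CPM in the empty wells of control replicates 1 and 2 and diabetes replicates 1 and 2 and to 7128, 5606, 1054 and 2723 in kept 1-cell wells, a ratio above 1 in all 4 pools and of 1.44 in diabetes replicate 2. In the same order, the ratio of endothelial markers was 0.730, 0.924, 1.17 and 0.715, below 1 in 3 of 4 pools, and myeloid markers at 0.729, 0.806, 0.584 and 0.928, below 1 in all 4. Smooth muscle and renin cell markers were at 0.463, 0.898, 0.292 and 0.787. Mesangial markers were on both sides of 1, at 0.749, 1.14, 0.880 and 2.25. With 4 pools, an exact two-sided permutation test of signs cannot give a p under 0.125, so these sums carry no test.

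Single genes were tested with edgeR's quasi-likelihood test on 8 summed libraries, 1 of empty and 1 of kept 1-cell wells per pool, with the pool as a block and Benjamini-Hochberg adjustment over 12509 genes. Of these, 27 (0.216%) were called higher and 1 (0.00799%) lower in empty wells at an adjusted p of 0.05, and 639 had an unadjusted p under 0.05. The median log2 difference of all genes tested was -0.03. No marker of the endothelial, mesangial, podocyte, myeloid, smooth muscle, fibroblast, lymphoid, platelet or erythroid lists was called. Among podocyte genes 9 of 11 had a positive log2 difference, with a median of 0.55. Podxl stood at 1911, 1247, 808 and 723 CPM in empty wells against 1723, 1212, 639 and 631 in kept 1-cell wells. It was higher in all 4 pools, with a log2 difference of 0.18 ± 0.12 (SE) and an adjusted p of 0.889. Of 14 endothelial genes 12 had a negative difference, with a median of -0.23: Emcn, endomucin, stood at -0.33 ± 0.17 (adjusted p = 0.889), Ly6c1 at -0.18 and Ehd3, a marker of glomerular endothelium, at -0.08. The podocyte median lay above and the endothelial median below that of all genes.

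Most genes of the myeloid and proliferation lists had a negative difference, and none was called. Of 12 myeloid genes 9 were below 0, with a median of -0.38. H2-Ab1, a chain of MHC class II, stood at 266, 45.1, 2307 and 194 CPM in empty wells and 420, 66.7, 3718 and 226 in kept 1-cell wells, lower in all 4 pools, with a log2 difference of -0.53 ± 0.14 and an adjusted p of 0.681. Lyz2, lysozyme, was lower in 3 of 4 pools (-0.43, adjusted p = 0.889). Of 18 proliferation genes 15 were below 0, with a median of -0.68, and Stmn1, stathmin, stood at -0.64 (adjusted p = 0.889). Pcna, the sliding clamp of DNA replication, stood at 0.05 and was higher in 3 of 4 pools. The summed ratio of the proliferation list was 1.26, 0.480, 0.492 and 0.836, so control replicate 1 lay on the other side of 1. In that pool a single kept 1-cell well held 47.7% of the reads of the proliferation list and another 46.8% of those of the myeloid list, whereas in diabetes replicate 1, the pool with the highest myeloid sum, the top wells held 22.6% and 12.3%. Among smooth muscle and renin cell genes, Ren1, renin, stood at 608 CPM in the empty and 1405 in the kept 1-cell wells of control replicate 1. There 1 empty well held 81.4% of the former and 1 kept 1-cell well 75.7% of the latter. For the whole list, the top kept 1-cell well held 64.5% and 46.6% of the reads in control replicates 1 and 2. In diabetes replicates 1 and 2 it held 35.6% and 28.7%.

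**Figure D2:**
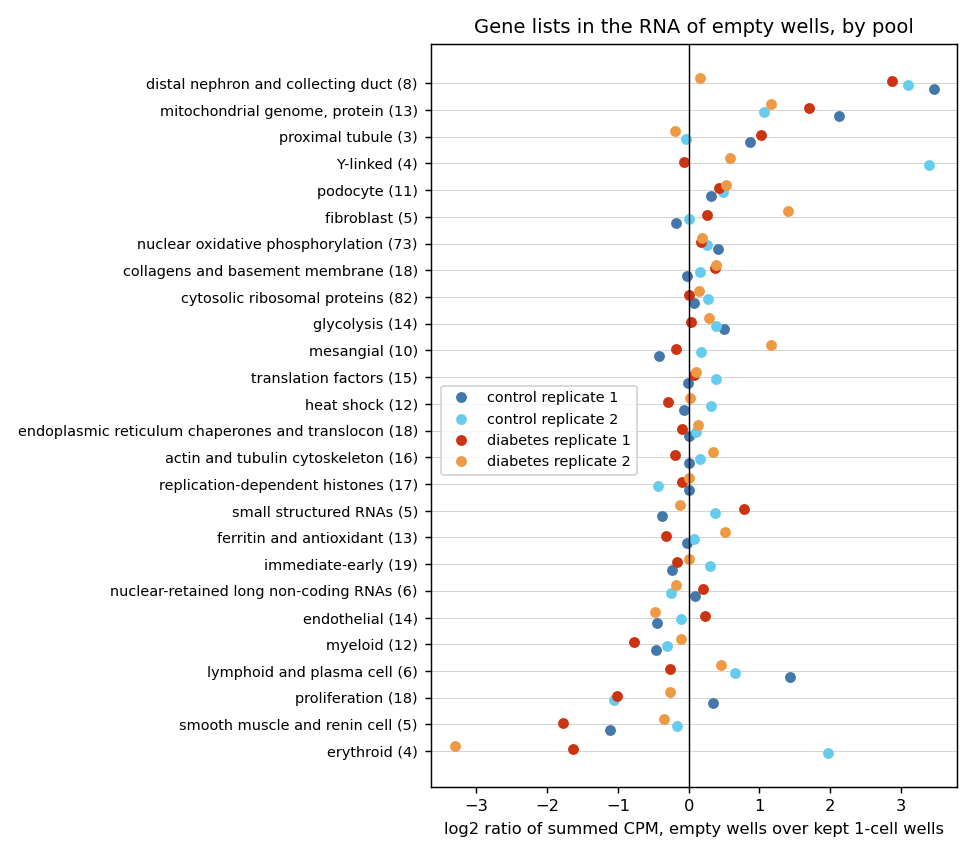
Log2 ratio of the summed CPM of each gene list, empty over kept 1-cell wells, with 1 point per pool and the number of tested genes in brackets; lists are ordered by the median log2 difference of their genes, lists with fewer than 3 tested genes are left out, and a pool without reads of a list has no point. In all 4 pools the podocyte, mitochondrial protein, distal nephron, cytosolic ribosomal protein, nuclear oxidative phosphorylation and glycolysis lists lie right of 0. The myeloid and smooth muscle lists lie left of it, and the replication-dependent histones at or left of it.

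Only 1 gene was called lower, Ccl4, a chemokine of activated macrophages and lymphocytes (chr11:83662584-83664683, GRCm38). It stood at 15.3, 7.23, 32.5 and 7.89 CPM in empty wells and at 69.5, 35.7, 125 and 92.8 in kept 1-cell wells, lower in all 4 pools (-2.51 ± 0.37, adjusted p = 0.0397). The call was lost on leaving out any 1 pool (log2 difference of Ccl4 -2.71 to -2.14, adjusted p = 0.0878 to 0.313), without the empty wells rich in reads, those above the 5th percentile given earlier (-2.56, adjusted p = 0.112) and against all 1-cell wells (-2.40, adjusted p = 0.329). Its reads came from few cells: 1 well held 67.0%, 94.8%, 34% and 80.8% of the reads of the kept 1-cell wells. For this reason it was outside the rule for named genes, and it is named because it was the only call.

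Of the 27 genes called higher, 13 lay in the mitochondrial genome and 9 were nuclear pseudogenes with copies of it. The filter capped mitochondrial reads in the 1-cell wells and not in the empty ones, so these 22 values describe the wells that the rule chose. With the same filter on the empty wells too, no gene was called, mitochondrial or other. The gene mt-Nd4, a subunit of complex I, stood at 24345, 9005, 13069 and 9164 CPM in empty wells and 4828, 3516, 3202 and 3369 in kept 1-cell wells, with no overlap between the kinds, a log2 difference of 1.79 ± 0.18. The 12S ribosomal RNA mt-Rnr1 stood at 50184, 35749, 44836 and 47731 CPM against 17587, 20076, 15557 and 24598 (1.21 ± 0.15), and the 16S ribosomal RNA mt-Rnr2 differed by 1.13 ± 0.16. The protein-coding genes mt-Nd2, mt-Atp8, mt-Nd3, mt-Nd5, mt-Cytb, mt-Co3, mt-Nd1, mt-Co2, mt-Atp6 and mt-Co1, for subunits of complexes I, III and IV and of the ATP synthase, differed by 1.76, 1.67, 1.65, 1.60, 1.57, 1.57, 1.52, 1.44, 1.42 and 1.31. Among these genes, differences from the kept 1-cell wells were all larger for protein-coding genes than for the ribosomal RNAs. Against all 1-cell wells this order did not hold. There mt-Rnr1 stood at 0.59 and mt-Rnr2 at 0.55, while mt-Atp8 stood at 0.76, mt-Nd2 at 0.62 and mt-Nd4 at 0.58. The rest of these protein-coding genes stood lower, from 0.31 (mt-Co1) to 0.54 (mt-Nd5). The gene mt-Nd6, the protein gene on the light strand, went the other way at -0.31 ± 0.52, with 4.21 to 19.9 CPM in empty wells, and mt-Nd4l stood at 1.43 (adjusted p = 0.0569). The reads of mitochondrial genes were spread over wells: no empty well held more than 17.9% of the reads of mt-Rnr1 in its pool.

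The pseudogenes cannot be told apart from their mitochondrial originals in these files. Gm28437, Gm28661 and Gm10925 had 1.00 to 1.02 times the summed reads of mt-Co3, 1.00 to 1.01 times those of mt-Co2 and 1.01 to 1.02 times those of mt-Atp6 in all 8 libraries. Gm28438 had 0.976 to 0.997 times those of mt-Nd3, and Gm29216 0.863 to 0.893 times those of mt-Co1. For Gm13339, Gm13340, Gm13341 and Gm28439 the closest ratio ranged more widely, from 0.443 to 2.74. The sources used here do not say how reads that fit both places were assigned.

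Against all 1-cell wells, with no filter on either side, the mitochondrial excess was smaller. Mitochondrial genes took 28.4%, 17.1%, 21.7% and 20.4% of the reads of empty wells and 21.6%, 12.8%, 19.3% and 17.4% of those of all 1-cell wells, higher in the empty wells of all 4 pools. In this comparison none of 12812 genes was called (0.0%), by edgeR, and 608 had an unadjusted p under 0.05; DESeq2 called 23 higher and 1 lower. Of 24 mitochondrial genes tested, 23 had a positive log2 difference, with a median of 0.49, and 14 had an unadjusted p under 0.05. The difference was 0.59 for mt-Rnr1 (adjusted p = 0.242), 0.55 for mt-Rnr2 (0.329) and 0.58 for mt-Nd4 (0.908), and -0.86 for mt-Nd6. In single wells the median mitochondrial share was 18.5%, 13.6%, 13.2% and 18.1% in empty wells, with quartiles of 12% and 37% in control replicate 1, against 10.1%, 10.3%, 9.35% and 13.5% in kept 1-cell wells. Nuclear-encoded subunits of the respiratory complexes had a median of 0.14 in this comparison. Against the kept 1-cell wells, 65 of 73 had a positive difference, with a median of 0.23 where the mitochondrial protein genes had 1.57, and none was called. Uqcr10, of complex III, stood there at 0.60 ± 0.15 (adjusted p = 0.571). Without the empty wells rich in reads the median of the nuclear-encoded subunits was 0.06.

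Tubule transcripts made up the next group. Umod, uromodulin, the main secreted protein of the thick ascending limb (chr7:119462711-119479282), stood at 514, 155, 146 and 261 CPM in empty wells and 6.49, 14.5, 10.5 and 20.9 in kept 1-cell wells, with no overlap (4.19 ± 0.48, adjusted p = 0.0195). In diabetes replicate 2 a single empty well held 99.3% of these reads, and in the other 3 pools the top well held 34.5% to 46.8%. Fxyd2, the gamma subunit of the sodium pump of tubule cells (chr9:45399669-45410278), stood at 980, 118, 372 and 31.3 CPM against 311, 24.9, 59.3 and 13.9 (1.93 ± 0.26, adjusted p = 0.0237). Ppp1r1a, an inhibitor of protein phosphatase 1 (chr15:103530279-103538003), stood at 182, 7.73, 15.5 and 12.4 CPM against 9.83, 1.42, 2.43 and 1.75 (3.05 ± 0.44, adjusted p = 0.0359). All 3 genes were higher in the empty wells of all 4 pools, and for Fxyd2 and Ppp1r1a 1 empty well held 79.0% and 57.4% of the reads of diabetes replicate 2. Ppp1r1a was chosen after its values were seen. Without the empty wells rich in reads, the log2 difference of Umod was 2.26 and the log2 difference of Fxyd2 was 1.28, and neither was called (edgeR, adjusted p = 0.937 for both). The log2 difference of Ppp1r1a was then 3.07 (adjusted p = 0.103). Without control replicate 1, Umod alone of all genes was called, and without diabetes replicate 1 no gene was. All 8 tested genes of the distal nephron and collecting duct had a positive difference, with a median of 2.92, and Umod alone was called; Slc12a1, the sodium-potassium-chloride cotransporter, stood at 3.95 ± 1.54 and Atp1b1, the beta subunit of the sodium pump, at 1.79 ± 0.42 (adjusted p = 0.889 and 0.55). The summed ratio of this list was 11, 8.57 and 7.31 in control replicates 1 and 2 and diabetes replicate 1. In diabetes replicate 2 the sums were 566 CPM in empty and 508 in kept 1-cell wells, where 1 kept 1-cell well held 79.8% of the reads of the list.

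The position of tubule genes depended on which 1-cell wells served as reference. The filter removed 69, 15, 60 and 50 of the 1-cell wells, of which 64, 15, 58 and 50 exceeded the mitochondrial limit, and the removed wells had 13904, 15241, 9801 and 3196 for the summed genes of the distal nephron list, in CPM of the reads outside the mitochondrial genome. On that scale the empty wells had 2697, 532, 950 and 575, the kept 1-cell wells 273, 70.6, 140 and 597, and all 1-cell wells together 2509, 495, 1468 and 849. Empty wells thus lay between the kept and the removed wells in 3 of 4 pools, and near the unfiltered mix in both control pools. Against all 1-cell wells Fxyd2 stood at -0.40 and Ppp1r1a at -0.18, on the other side of 0, and Umod at 1.22 (adjusted p = 0.908). The distal nephron list had a median of -0.29 and the proximal tubule list one of -0.39 in that comparison. The podocyte list had a median of 0.46 against all 1-cell wells and of 0.34 without the rich empty wells.

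Of the 15 genes of the proximal tubule list 3 were tested: Fxyd2 was called, Gpx3, a glutathione peroxidase, stood at 1.45 ± 0.34 (adjusted p = 0.534) and Cyp4b1, a cytochrome P450, at -0.46 ± 0.17 (adjusted p = 0.889). Cyp4b1 had 217 and 322 CPM in the empty and 328 and 516 in the kept 1-cell wells of control and diabetes replicate 2, where the whole list summed to 369 and 482 in empty and 379 and 554 in kept 1-cell wells. The list had summed ratios of 1.83 and 2.03 in control and diabetes replicate 1 and 0.974 and 0.871 in control and diabetes replicate 2. All 4 erythroid genes tested had a negative difference (median -1.44), and 1 kept 1-cell well held 99.6% and 91.2% of the list's reads in diabetes replicates 1 and 2. The summed erythroid ratio was 0.321 and 0.101 in those pools and 3.92 in control replicate 2, and control replicate 1 had too few such reads for a ratio. Of 6 lymphoid and plasma cell genes 3 were above 0 (median -0.39), and of 2 platelet genes 1 (median 0.27). The summed lymphoid and plasma cell ratio was 2.69 and 1.57 in control replicates 1 and 2 and 0.837 and 1.37 in diabetes replicates 1 and 2. In diabetes replicate 2, 1 empty well held 73.0% of the reads of that list in empty wells. All 5 fibroblast genes were above 0 (median 0.33), with a summed ratio of 2.66 in diabetes replicate 2 and 0.881 to 1.2 in the other pools.

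The last pair of calls, Entpd3, an ectonucleotidase (chr9:120539818-120568327), and 4930544G11Rik (chr6:65952609-65954014), were read in experiment 1 and hardly at all in experiment 2. Entpd3 stood at 455 and 591 CPM in the empty wells of control and diabetes replicate 1 against 21.1 and 23.9 in kept 1-cell wells (4.47 ± 0.35, adjusted p = 0.0195), and no read of it was found in the empty or kept 1-cell wells of experiment 2. Counted per well, Entpd3 had 1.53 and 2.08 reads per empty well and 1.00 and 1.46 per kept 1-cell well. It was present in 95.9% and 96.7% of empty wells. For 4930544G11Rik the CPM were 381 and 508 against 19.7 and 15.6 (4.58 ± 0.40), again with no read in the empty wells of experiment 2, where 0.493% of the kept 1-cell wells of control replicate 2 had any. Both calls thus rest on control and diabetes replicate 1, which shared a chip. Both genes fall outside the rule for named genes and were chosen after their values were seen, as were the genes that follow.

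In experiment 1, known amounts of artificial RNA (spike-ins) had been added to every well, and their reads give a measure of each well that comes from no cell. The median well had 10884 and 11822 spike-in reads among the empty wells of control and diabetes replicate 1 and 9372 and 8998 among the kept 1-cell wells. Across the 379 empty wells of experiment 1, Spearman's rho between a transcript's reads and the well's spike-in reads was over 0.5 for 5 of the 1137 transcripts found in at least 20% of these wells, among them Fastk (0.73), Npas2 (0.71), Entpd3 (0.65) and 4930544G11Rik (0.54). The median rho was 0.04, 95% of the transcripts were at or below 0.13, and the next transcripts stood at 0.46. With the well's reads on genes, these 4 transcripts had a rho of 0.04 to 0.08, where the median transcript had 0.41. In the 248 kept 1-cell wells of experiment 1 their rho with spike-in reads was 0.52 to 0.65. Other transcripts came near these values there, such as mt-Rnr1 at 0.53 and Malat1 at 0.50. With the reads on genes of those wells, the 4 transcripts had a rho of 0.20 to 0.39. Npas2, a transcription factor of the circadian clock, was the most abundant, with 6.06 and 7.84 reads per empty well and 4.03 and 5.45 per kept 1-cell well in control and diabetes replicate 1, and reads in 99.5% and 100.0% of the empty wells. Fastk, a mitochondrial kinase family member, had a mean of 2.82 reads per empty well and 3.59 per kept 1-cell well. In the empty wells of experiment 2, Npas2 had no read and Fastk 0.866 reads per well. These correlations are descriptions over wells that share a chip and a library, and whether spike-in sequence was counted on these genes was not tested, since the spike-in sequences were not at hand.

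**Figure D3:**
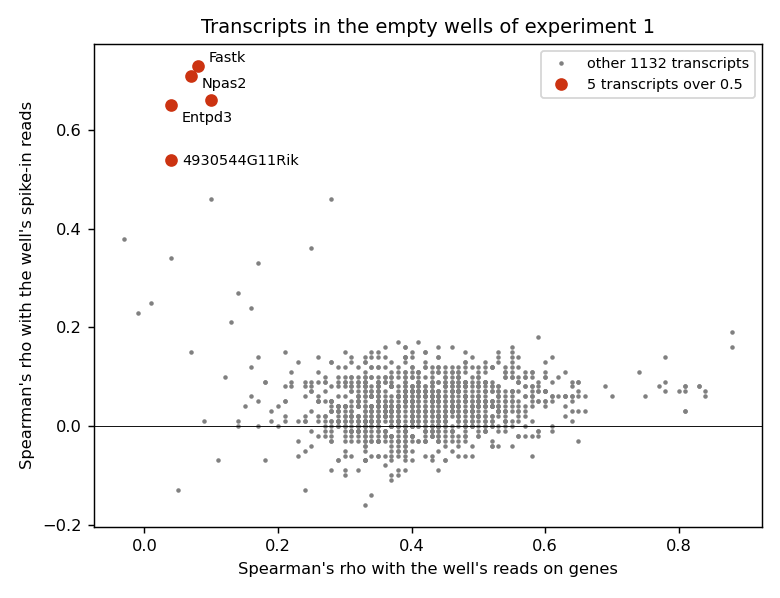
Each point is 1 of 1137 transcripts in the 379 empty wells of experiment 1, with Spearman's rho against the well's reads on genes (x) and against its spike-in reads (y). The 5 transcripts with rho over 0.5 on the y axis, of which 4 are labelled, lie apart at the upper left.

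The contents of an empty well were related to its place on the chip. For each chip column, the summed profile of its empty wells was compared with that of its occupied wells (all wells not imaged empty), over 1486 to 1488 abundant genes outside the mitochondrial genome and after the pool's mean had been taken off. The empty wells of a column resembled the occupied wells of that same column most in 40 of 40 columns. Pearson's r with the own column was 0.35 to 0.73 in control replicate 1, 0.38 to 0.66 in control replicate 2, 0.37 to 0.68 in diabetes replicate 1 and 0.38 to 0.82 in diabetes replicate 2. With the other columns of the pool the highest r was 0.11, 0.22, 0.22 and 0.29, and the medians were -0.07 to -0.05. By chip row, the own row was the most similar in 0 of the 40, 37, 40 and 37 rows that held both kinds of well, with median r of -0.04 to 0.00. These correlations are across genes, and columns of a pool are not replicates. Whether wells of a column were combined in 1 library is not stated in the labels, and whether the likeness arose on the chip or in the libraries was not tested. Between the median reads of empty wells and the summed reads of the occupied wells of their column, Spearman's rho was 0.45, -0.22, 0.66 and 0.26 over 10 columns per pool, of no common direction.

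**Figure D4:**
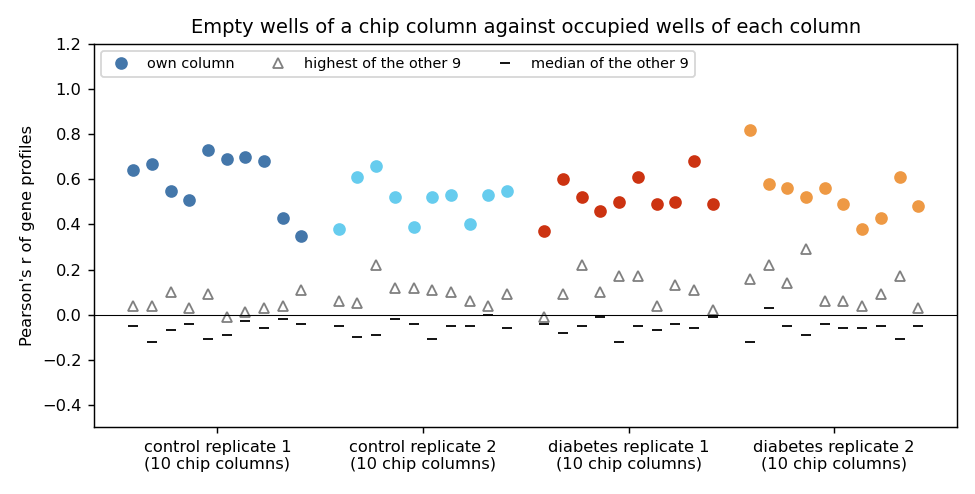
Pearson's r between the empty wells of a chip column and the occupied wells of its own column (filled points), with the median (dash) and the highest (triangle) r against the other 9 columns of the pool. The own column stands above every other in all 40 columns.

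The same was seen in transcripts that were held mostly by 1 well. There were 30 cases, from 20 source wells, in which an occupied well held at least 2000 reads of a transcript and at least 50% of its reads in the pool. In all 30 the empty wells of the source's own column had more reads than the empty wells elsewhere in the pool, and in 29 of 30 more than those of the same row in other columns of the chip. The exception was Ccl4, with 0.444 reads per empty well in the column and 5.00 in the row. Without the empty well of the column with the most reads, a choice made after seeing the data, the column mean was above that elsewhere in 30 of 30 and above that of the row in 27, the exceptions being Ccl4, Hba-a1 and Hba-a2 in diabetes replicate 2. The medians over the 30 were 11 reads per empty well in the column (6.88 without that well), 0.0 in the row and 0.257 elsewhere. A median of 0.111% of the source's reads was found per empty well of the column (0.0152% to 1.85%).

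Red cell, neutrophil, plasma cell and tubule transcripts all followed this pattern, some by a narrow margin. Slc12a1 in control replicate 2 had 1.62 reads per empty well in the column and 1.22 elsewhere. For Ccl4 in diabetes replicate 2 the values were 0.444 and 0.241. Wider margins follow. In diabetes replicate 1, 1 well with 16729 reads of Hbb-bs, beta-globin, held 91.8% of the pool's reads of this gene. The 24 empty wells of its column had a mean of 19.2 reads, 23 of them with at least some, and no read was found in the empty wells elsewhere on the chip. In diabetes replicate 2, 1 well with 11578 reads of S100a8, a calcium-binding protein of neutrophils, was matched by 3.38 reads per empty well in its column, 0.0 in its row and 0.0366 elsewhere in the pool. A well with 45408 reads of S100g, a calcium-binding protein of the distal tubule, was matched by 260 reads per empty well in its column and 0.233 elsewhere, and for Aqp2, the water channel of the collecting duct, the values from the same well were 21.6 and 0.0930. For Jchain, the joining chain of secreted antibodies, the means were 786 in the column, 43.6 in the row and 4.64 elsewhere, but 1 empty well of the column held 5318 reads and the others had a mean of 139. In control replicate 1 the source of Ren1 had 6062 reads, and empty wells held 15.3 in its column, 0.308 in its row and 0.0976 elsewhere, where 1 well of the column held 324 and the others had a mean of 2.42. Kept 1-cell wells showed the same in 25 of the 30 cases, with medians of 10.8 reads per well in the column and 0.712 elsewhere.

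Within the column, the distance from the source was compared as well. In 27 cases the column had empty wells both within 5 rows of the source and beyond, and in 23 of these the nearer wells had the higher mean, with medians of 21.3 and 5.00 reads. These cases come from 17 source wells, and in 10 of them only 1 empty well lay near. The haemoglobin genes of diabetes replicate 1 were nearly even, with 21.3 reads of Hbb-bs within 5 rows and 18.7 beyond, whereas Ren1 had 87.2, over 4 wells of which 1 held 324, and 1.57.

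**Figure D5:**
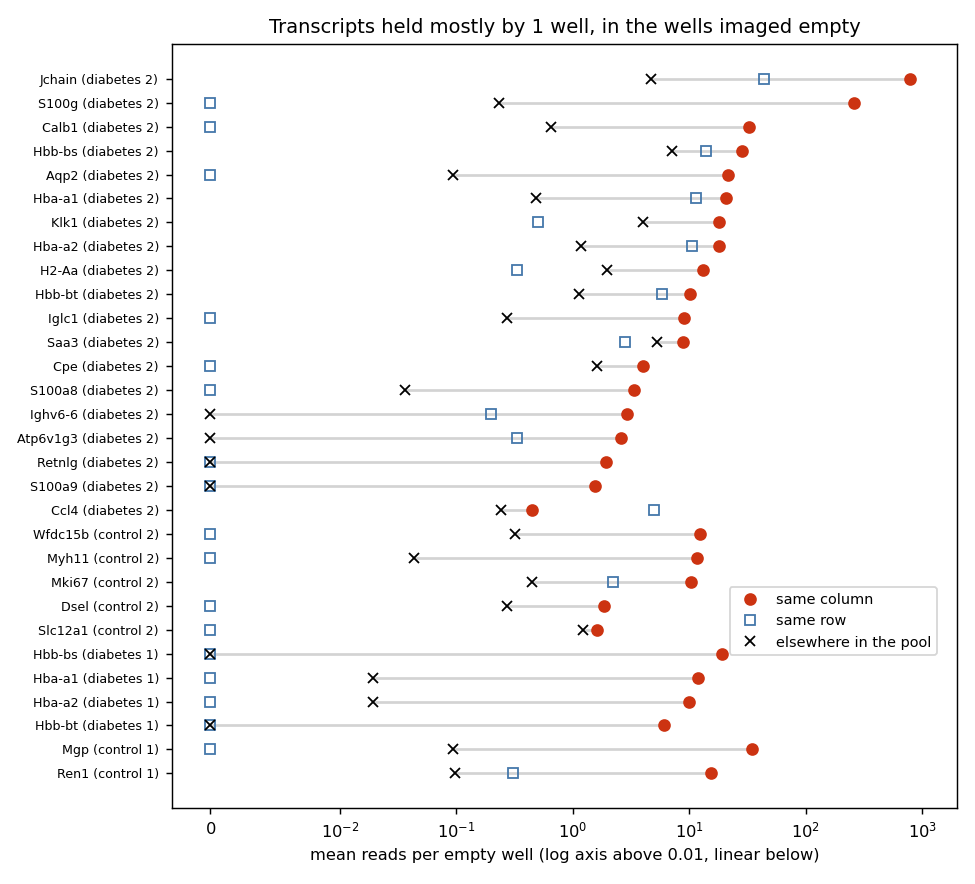
Mean reads per empty well for the 30 transcripts held mostly by 1 occupied well, in the source's own chip column (red), in its row (blue squares) and elsewhere in the pool (crosses), on a log axis that is linear below 0.01. The column value lies right of the value elsewhere in all 30 and right of the row value in all but Ccl4.

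Transcripts that differ by sex served as a check between pools of a chip. Xist, the RNA of the inactive X chromosome, had 1.23 and 11.6 reads per empty well in control replicates 1 and 2 and 0.0435 and 0.0306 in diabetes replicates 1 and 2. The 4 Y-linked genes Ddx3y, Eif2s3y, Kdm5d and Uty together had 0.444 and 9.12 reads per empty well in diabetes replicates 1 and 2, none in control replicate 1 (in 195 wells) and 0.207 in control replicate 2, where 11.7% of empty wells had such a read. Kept 1-cell wells had the same order, with 14.1 and 105 reads of Xist per control well and 0.0745 and 0.282 per diabetes well. The design text calls the littermates sex-matched, and these values go against that. Treatment therefore cannot be told apart from sex in any comparison between the treatments, and neither enters the comparison of wells within a pool.

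The remaining lists had no call. Of all genes tested, 5938 of 12509 had a positive difference. Of 82 cytosolic ribosomal protein genes 68 had a positive difference, with a median of 0.13. Malat1, an abundant RNA that stays in the nucleus, stood at 16104, 12148, 13526 and 13634 CPM in empty wells and 15177, 14299, 12218 and 15341 in kept 1-cell wells, -0.04 ± 0.12, with overlapping ranges, and 4 of 6 nuclear-retained RNAs were below 0. Immediate-early genes (8 of 19 above 0, median -0.10), heat shock genes (7 of 12, median 0.05), endoplasmic reticulum chaperones (10 of 18, median 0.04) and collagens and basement membrane genes (15 of 18, median 0.14) stood within 0.2 of 0 in their medians, as did translation factors (12 of 15 above 0, median 0.08), glycolysis (8 of 14, median 0.11), actin and tubulin genes (10 of 16, median 0.04), replication-dependent histones (9 of 17, median 0.03), ferritin and antioxidant genes (6 of 13, median -0.03), and small structured RNAs (3 of 5, median 0.00). The Y-linked genes had a median of 1.02, with 3 of 4 above 0. Their summed ratio was 0.957 and 1.51 in diabetes replicates 1 and 2. It was 10.6 in control replicate 2, on few reads: Ddx3y had 17 in empty and 13 in kept 1-cell wells there. Actb, beta-actin, differed by 0.04 and Nos3, the gene deleted in these mice, by -0.34 ± 0.32. Its reads stood at 29 to 72.3 CPM in empty wells and 34.9 to 56.2 in kept 1-cell wells, in ranges that overlapped. Which part of the gene these reads cover was not tested.

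No gene passed the test of a different contrast between treatments or between experiments. The interaction of well kind with treatment called 0 of 12509 genes by edgeR, with 467 at an unadjusted p under 0.05, and that with experiment called 0, with 581 and a smallest adjusted p of 0.0512; DESeq2 called 22 and 23. Across genes outside the mitochondrial genome, the log2 difference in a pool had a Spearman's rho of -0.08, -0.06, -0.01 and -0.03 with the summed exon length, over 9615 to 11976 genes.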

How the data were processed

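The deposited gene tables, 1 per experiment, hold expected counts of reads for each gene in each well (74.1% and 79.3% of the values above 0 were whole). Tools named in the submitters' processing notes are STAR 2.4.2a, featureCounts 1.5.1, BWA 0.7.17-r1188 and cutadapt 1.11, on mm10, with no role or order. The deposited spike-in table of experiment 1 holds counts on 95 sequences, 96.3% of them on 1. No molecular identifiers are named, so reads are not independent molecules, and intervals cover counting error only. The intervals also take wells as independent, although the contents of empty wells followed the chip column. Use of strand in counting is not stated. GENCODE M21 (GRCm38) named 45229 of 45792 identifiers and gave coordinates.

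Expected counts were summed per pool and well kind (755235, 4422194, 689889 and 4695218 reads in the empty wells of control replicates 1 and 2 and diabetes replicates 1 and 2, and 4763074, 48389035, 6722624 and 37972891 in the kept 1-cell wells), rounded, and fitted in R 4.3.3 with edgeR 4.0.16 (TMM, filterByExpr, robust quasi-likelihood, pool as block, 3 residual degrees of freedom, median prior degrees of freedom 5.78). DESeq2 1.42.0 was an alternative. The edgeR fit was tested on simulated data, and DESeq2 was not. Python 3.11.15, numpy, pandas and scipy did the rest. Pools are the replicates, and each is 1 preparation of 3 mice, so p-values measure the spread between 4 preparations. Those of Entpd3 and 4930544G11Rik rest on control and diabetes replicate 1 alone. No doublet caller was run, since imaging counted cells. Genes with near-identical copies are uncertain.

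Genes were named if among the 12 largest calls in a direction, of the same sign in all pools, at 50 CPM or more on average, with no well over 50% of the reads and no clone name; also the 3 most abundant members of each of 28 lists, Xist and the Y-linked genes. Nos3, S100g, mt-Nd4l, mt-Nd6, genes held by 1 well and those said to be so were chosen after their values were seen. Some gene-level values are not reported here. The members, lists and tests were chosen with earlier results of these data known. Alternatives changed the scaling, tool, filters, pools, reference wells, depth and mitochondrial reads.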

Additional observations from a re-analysis of the deposited data

Results flagged for a closer look

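With 4 pools, a pool was singled out where its log2 difference (empty over kept 1-cell wells) stood far from the other 3 by Dixon's test; chance gives this in about 1 in 20 groups. It happened for 8 of 102 named genes and for 0 of 26 list sums. Umod stood at 6.31 in control replicate 1 and Pf4, of platelets, at 4.32 in control replicate 2. Mgp, matrix Gla protein, stood at 1.67 in diabetes replicate 2. Pcna stood at -1.24, Eif1 at -0.10 and Cyp4b1 at 0.03 in diabetes replicate 1. Col1a2 stood at -0.05 and Hist1h1c at -0.44 in control replicate 1.

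For 8 lists, both pools of an experiment lay on 1 side of 0 and both pools of the other experiment on the opposite side; some of these pools lay close to 0, and the differences were not tested. The mean log2 ratio of the sums in experiment 2 minus that in experiment 1 was 0.98 for mesangial, -1.07 for proximal tubule, -0.36 for nuclear-retained RNA, 0.35 for immediate-early, 0.34 for heat shock, 0.17 for endoplasmic reticulum chaperone, 0.36 for actin and tubulin and 0.47 for ferritin and antioxidant genes.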

How the results depend on the processing

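The 27 genes higher and 1 lower in empty wells became 85 and 2 with DESeq2, 78 and 5 in experiment 1 alone, 40 and 3 with no filter on low counts, 19 and 0 in experiment 2 alone, 26 and 0 without empty wells rich in reads, 35 and 0 after thinning, 12 and 0 with mitochondrial genes left out, and 0 and 0 with no replicate block, against all 1-cell wells, or with the filter on empty wells too. RLE scaling gave 29 and 1. Against all wells not imaged empty, an alternative chosen after seeing the data, 4 and 0 remained: mt-Rnr1, mt-Rnr2, Entpd3 and 4930544G11Rik. Leaving out 1 pool gave 0 to 32 higher and 0 lower: 1 without control replicate 1, 4 without control replicate 2, 0 without diabetes replicate 1 and 32 without diabetes replicate 2. All 27 were among the calls with DESeq2, RLE scaling, no filter and experiment 1 alone, and 25 of them without diabetes replicate 2. The causes were not tested.

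Fxyd2 turned to -0.40 and -0.21, and Ppp1r1a to -0.18 and -0.24, against all 1-cell wells and against all wells not imaged empty; the cause was not tested. Calls that differed between treatments rose from 0 to 22 (DESeq2) and 40 (no filter), and between experiments from 0 to 1 (RLE scaling), 23 (DESeq2), 59 (no filter), 2 (without rich empty wells) and 6 (thinning). Mitochondrial calls against all 1-cell wells rose from 0 to 1 (DESeq2) and 2 (no filter). The list medians moved by less than the spread between pools in 406 cases and by more in 35. Empty wells of experiment 1 had few reads, so genes under a few counts there have no value.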
